A study of Mus musculus with 25 samples.

Results

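Non-tumor liver of 12-month-old mice whose hepatocytes lack Mcl-1 was compared with liver of 12-month-old wild-type littermates, across all genes on the array. The comparison used 7 of the 25 arrays of the study. The 4 knockout arrays (animals 1109, 638, 702 and 793) were those labelled Mcl-1 ko, 12 months, with UN after the animal number, the mark of the non-tumor sample. The 3 wild-type arrays were of animals 552, 641 and 1110. All mice were untreated, and RNA was taken from homogenates of liver, so that hepatocytes, immune cells and stromal cells were measured together. Each of the 4 knockout mice also gave a tumor sample, which was not part of the comparison. Sex, strain, Cre driver and the deleted stretch of Mcl1 are not in the labels. Livers of mice aged 2 months (2 wild-type, 3 hemizygous and 3 knockout) and non-tumor liver of 3 knockout mice aged 8 months were in the same model, where they added to the estimate of the spread, and the 2-month groups gave the same contrast at a younger age.

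MCL-1 is a survival protein of the BCL-2 family. It sits at the outer membrane of mitochondria, where it holds the pore-forming proteins BAX and BAK and their BH3-only activators in check, and hepatocytes are known to depend on it. When hepatocytes die over a long time, neighbouring hepatocytes divide to replace them, dead cells draw in macrophages and lymphocytes, and tumors can form.

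A level below is the log2 processed signal of a gene's probe minus the 75th percentile of that array, so 1 unit is a factor of 2 in signal. Levels were set against each other within a gene only. Liver markers were well above background on all 7 arrays: albumin (Alb), transthyretin (Ttr), apolipoprotein A-I (Apoa1) and the liver transcription factor Hnf4a. On wild-type 641, 84.8% of probes were well above background, against 60.3% to 70.4% on the other 6 arrays, and the first principal component of the 7 arrays (48.4% of the variance) set this array apart. It was also the only one of the wild-type arrays scanned on the first of 2 scan days, with all 4 knockout arrays, and the only one of them with Xist, which coats the inactive X chromosome, well above background. Scan day, Xist signal and this array's other properties cannot be told apart within the wild-type group, so results are also given without wild-type 641 or against it alone. Without it, all wild-type arrays were scanned on the other day from all knockout arrays, so genotype and scan day cannot be told apart there. Values against it alone rest on 1 wild-type array. No slide held both groups, so genotype and slide cannot be told apart in any of these comparisons. Xist was present on knockout 638 and 793 and not well above background on knockout 1109 and 702, which carried the Y-linked transcripts Ddx3y and Eif2s3y.

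Mcl1, the deleted gene, had levels of 4.47, 3.88 and 4.50 in wild-type 552, 641 and 1110. In knockout 1109, 638, 702 and 793 its levels were 2.82, 2.39, 2.54 and 2.73. The groups did not overlap, and the lowest wild-type animal lay more than 1 unit above the highest knockout animal. The knockout mean was 2.62 ± 0.19 (SD, n = 4) against 4.28 ± 0.35 (n = 3), a difference of -1.66 (SE 0.31) or 3.16-fold, with an adjusted p of 0.094 (limma, Benjamini-Hochberg over all genes). A second probe of Mcl1 differed by the same -1.66. The difference was -1.86 without wild-type 641 and -1.25 against it alone, and its adjusted p was 0.0136 without knockout 638. In whole liver, fewer cells of a type and less RNA per cell cannot be told apart. Which part of the transcript was deleted is not given, so the probe may lie outside of it.

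Of 27030 probes and genes tested, 5 passed the adjusted p of 0.05 (0.0185%), 2 of them higher and 3 lower in the knockout. Lpin2 fell by 2.67 (SE 0.35, adjusted p = 0.0207). Lpin2 codes for lipin 2, a phosphatidate phosphatase of the liver that makes the diacylglycerol used for triglycerides and phospholipids. Its levels were 2.26, 1.92 and 1.73 in wild-type 552, 641 and 1110 and -1.07, -0.01, -0.95 and -0.77 in knockout 1109, 638, 702 and 793. All 4 knockout livers lay below all wild-type livers, with knockout 638 the nearest to them, and the fold was 6.37.

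Dmrta1, a gene of the doublesex-related transcription factor family, fell in all 4 knockout livers (adjusted p = 0.00313). Its levels were -3.48, -2.08 and -3.56 in the wild-type arrays and -7.62, -6.62, -8.00 and -8.44 in the knockout arrays, in the order above. It was well above background on 3 of 3 wild-type and on 0 of 4 knockout arrays, so the difference is given as a bound of at least 6.27-fold. The bound sets the wild-type mean against the lowest signal that counted as well above background on each knockout array.

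B3galnt1 rose by 3.71 (SE 0.48, adjusted p = 0.0207), which is 13.1-fold. It codes for a glycosyltransferase that builds globoside glycolipids. Levels were -3.25, -4.17 and -2.65 in wild-type 552, 641 and 1110 and 1.25, -1.16, 0.32 and 1.02 in knockout 1109, 638, 702 and 793. The groups were apart by more than 1 unit, again with knockout 638 nearest to the wild-type. A second B3galnt1 probe differed by 2.87. Both other probes past the threshold carry transcripts without a symbol. A_51_P361620 rose by 5.50 (SE 0.79, adjusted p = 0.041), from levels of -7.88, -4.50 and -6.62 to levels of -1.55, 0.32, -1.35 and -0.77. It was well above background on 1 of 3 wild-type arrays, so the size of its difference is uncertain. A_52_P487040 fell by 1.23 (SE 0.18, adjusted p = 0.0499).

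**Figure D1:**
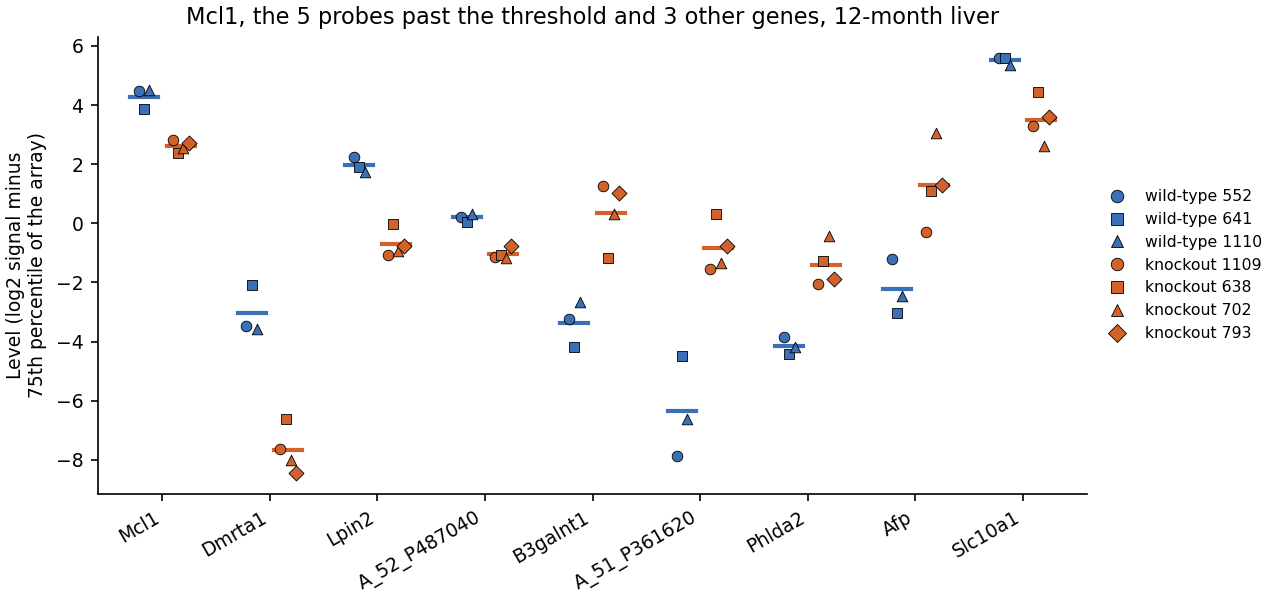
Level of each array (vertical axis, log2 signal minus the 75th percentile of the array) for Mcl1, the 5 probes past the threshold and Phlda2, Afp and Slc10a1. Blue symbols are the 3 wild-type and orange symbols the 4 knockout non-tumor livers at 12 months, symbols mark the animal, and horizontal lines are group means. In each of the 9 the groups do not overlap, which was a condition of the choice for Phlda2, Afp and Slc10a1.

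How many genes passed turned on single animals. Leaving out knockout 638 gave 2846 of 26893 genes past the threshold (10.6%), 1276 higher and 1570 lower, with all 5 of the above among them. Leaving out knockout 1109, 702 or 793 left 1, which was Dmrta1, and leaving out wild-type 552, 641 or 1110 gave 49, 35 and 25. Of the arrays of other groups, leaving out the 8-month knockout 934 gave 48 and leaving out any other gave 3 to 6. Without knockout 1109, 702 or 793, adjusted p values ranged from 0.0554 to 0.113 for B3galnt1 and from 0.0576 to 0.116 for Lpin2. Knockout 638 was the knockout animal most like the wild-type, though barely so for wild-type 552. Across genes its levels correlated at 0.966, 0.947 and 0.963 with wild-type 552, 641 and 1110. The values were 0.965, 0.907 and 0.953 for knockout 1109 and 0.960, 0.927 and 0.944 for knockout 793. The mean of knockout 638 was the nearest of the knockout means to the wild-type mean for 24 of 46 gene lists. Knockout 702 was the farthest for 28 of the 46. Since knockout 638 was singled out after these values were seen, the count without it only shows how far the comparison rests on this animal.

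Beyond those 5, the comparison held many differences of moderate size with adjusted p values between 0.05 and 0.15. Over all genes, 4651 (17.2%) had an unadjusted p under 0.05, 2304 higher and 2347 lower. At an adjusted p of 0.10, chosen after the data were seen, 141 genes passed (0.522%). The 4 knockout arrays lay above all 3 wild-type arrays for 1436 of 26604 genes measured on all 7 (5.4%), and below them for 1271 (4.78%). The median difference over all genes was -0.09, and 44.8% of genes lay above 0. The median of all genes was 0.22 without wild-type 641 and -0.52 against it alone. Lists of genes are read against these shares and medians.

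The 15 genes with a symbol and the smallest p among those higher in the knockout included Afp, Phlda2, Tinag and Btg2. They were taken only from genes whose groups did not overlap and differed by at least 1. Their lack of overlap was thus a condition of the choice, not a result. Alpha-fetoprotein (Afp), the fetal counterpart of albumin, had levels of -1.20, -3.04 and -2.47 in wild-type 552, 641 and 1110. In knockout 1109, 638, 702 and 793 they were -0.30, 1.08, 3.07 and 1.30. The difference was 3.53 (SE 0.64, adjusted p = 0.094), an 11.5-fold difference of means. The groups did not overlap, with the highest value in knockout 702 and the lowest knockout value, in 1109, within 1 unit of wild-type 552.

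Phlda2, an imprinted gene that restrains growth of the placenta, had levels of -3.83, -4.42 and -4.20 in the wild-type and -2.05, -1.26, -0.42 and -1.89 in the knockout animals. It differed by 2.74 (SE 0.45, adjusted p = 0.0731), and a second probe differed by 2.47. Tinag, a basement membrane glycoprotein best known from kidney tubules, showed the largest difference of these 15: levels of -3.76, -5.48 and -5.99 stood against 1.59, -0.58, 1.06 and 1.83, a difference of 6.05 (SE 1.12, adjusted p = 0.094). It was well above background on 2 of 3 wild-type arrays. Both wild-type and knockout groups were wide for Tinag, and still more than 3 units apart.

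The p53 and growth-arrest gene Btg2 differed by 3.22 (SE 0.61, adjusted p = 0.094), with levels of 0.17, -0.45 and 0.33 against 3.47, 1.99, 4.46 and 3.01. Its 2 other probes differed by less, 1.16 and 0.89. Tmprss4, a membrane serine protease of epithelia, differed by 4.05 (SE 0.80). The semaphorin receptor gene Plxnb1 (1.55), the actin-binding Twf2 (1.71), the guanine nucleotide synthesis enzyme Impdh1 (1.67), the myotubularin relative Mtmr11 (3.14), the inhibitory myeloid receptor Cd300lf (2.21), the translesion DNA polymerase Poli (1.15) and 3 interferon-inducible genes, Oas1f (2.36), Ifi27 (1.43) and Ifi44 (2.41), completed the 15 with B3galnt1. Adjusted p values other than that of B3galnt1 lay between 0.0731 and 0.098.

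The 15 with the smallest p that were lower, chosen by the same conditions, began with Dmrta1 and Lpin2 and also included Slc10a1, C4a and Prpf19. Slc10a1 codes for NTCP, the sodium-coupled transporter by which hepatocytes take up bile acids from blood. Its levels were 5.61, 5.60 and 5.36 in wild-type 552, 641 and 1110 and 3.31, 4.44, 2.63 and 3.60 in knockout 1109, 638, 702 and 793. The wild-type animals lay close together and all knockout animals were lower, knockout 702 the lowest. The difference was -2.03 (SE 0.39, adjusted p = 0.094), or 4.07-fold.

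C4a, one of the paired C4 complement genes, differed by -2.10 (SE 0.32, adjusted p = 0.0562). Over the alternatives given below it ranged from -2.39 to -0.36, so the size of its difference is uncertain. It shares most of its sequence with C4b, so the probe may read both. Prpf19, a ubiquitin ligase of the spliceosome, had levels of 2.77, 2.51 and 3.0 against 0.54, 1.74, 0.86 and 0.79 and differed by -1.77 (SE 0.29, adjusted p = 0.0731). Knockout 638 lay nearest to the wild-type for Prpf19. The others were the lysine breakdown enzyme Aldh7a1 (-1.48), the tail-anchored protein targeting factor Get3 (-1.17), the GTPase-activating protein Arhgap5 (-1.32), the muscle-type myosin light chain Myl7 (-2.34), the small heat shock protein Hspb6 (-2.19), the mTOR inhibitor Deptor (-1.02), the secreted factor Tafa5 (-3.58), the ubiquitin ligase Ubr3 (-1.44), Abcb1b and Mcl1. The direction of Abcb1b, a drug efflux pump, is not settled: it differed by -1.07 by the probe with the highest signal and by 1.21 by another probe that was well above background on all 7 arrays. Second probes differed by less for Arhgap5 (-0.11), Aldh7a1 (-0.65) and, among the higher genes, Plxnb1 (0.62).

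Genes of mitosis formed the list with the highest median difference of the 47. All 32 tested members lay above 0, with a median of 2.42 against -0.09 for all genes, and in 19 of 32 every knockout animal was above every wild-type animal (5.4% of all genes). None of the 32 passed the adjusted p of 0.05 and 1 passed 0.10. The median was 3.0 without wild-type 641 and 1.59 against it alone. Mean levels of the list were -2.99, -2.45 and -5.0 in wild-type 552, 641 and 1110 and -1.92, -2.28, 0.11 and -0.68 in knockout 1109, 638, 702 and 793. The list means did not overlap between groups, with wild-type 1110 far below both other wild-type animals and knockout 638 only just above wild-type 641.

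Mitosis genes share a known mode of control: the DREAM and B-MYB complexes bind a short element, TTTGAA, called the CHR, while the factor NF-Y binds CCAAT boxes upstream. Both motifs were searched on both strands in the 250 bases before the annotated start (RefSeq, GRCm38.p6, first listed window of each gene), which was available for 28 of the 32 genes. TTTGAA occurred in 8 of the 28 (28.6%) against 16.3% of all 27025 genes with a window, and CCAAT in 19 (67.9%) against 34.5%. The windows of Ect2 and Cdk1 are shown because they are those of the 2 members with the smallest p that hold both motifs. Genes of a single chromosome were left out of this choice. The motifs are in capitals on whichever strand they lie, as the reverse complement where that is the other strand.
Ect2 (chr3:27153879-27154128, minus strand): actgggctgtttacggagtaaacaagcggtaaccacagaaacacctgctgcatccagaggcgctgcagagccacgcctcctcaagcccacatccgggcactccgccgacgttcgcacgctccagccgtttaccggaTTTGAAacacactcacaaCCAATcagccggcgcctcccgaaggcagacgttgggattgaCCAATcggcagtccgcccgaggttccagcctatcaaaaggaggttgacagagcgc
Cdk1 (chr10:69352913-69353162, minus strand): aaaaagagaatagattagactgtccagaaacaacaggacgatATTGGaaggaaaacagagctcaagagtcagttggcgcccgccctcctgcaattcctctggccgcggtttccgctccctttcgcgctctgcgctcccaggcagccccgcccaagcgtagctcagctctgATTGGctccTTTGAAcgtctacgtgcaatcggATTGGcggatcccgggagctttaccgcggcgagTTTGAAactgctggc
A match describes these letters only. In the Cdk1 window TTTGAA ends a few bases before the start and CCAAT occurs, reversed, upstream of it.

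Ect2 codes for an exchange factor needed for the cleavage furrow. Its levels were -2.02, -2.50 and -3.17 in wild-type 552, 641 and 1110 and 0.10, -1.21, 1.12 and 0.68 in knockout 1109, 638, 702 and 793, a difference of 2.74 (SE 0.61, adjusted p = 0.0999). The groups did not overlap, and a second probe differed by 1.48. Aurka, the centrosomal kinase, had levels of -0.69, -0.74 and -1.62 against 0.77, 0.06, 2.46 and 2.01, a difference of 2.34 (SE 0.56, adjusted p = 0.107). In Prc1, which bundles the spindle midzone, levels of -1.15, -1.90 and -3.61 stood against 0.54, -0.96, 2.60 and 1.46 (3.13, SE 0.82). Knockout 702 was the highest and knockout 638 the lowest of the 4 knockout animals in all 3 genes.

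Aurkb, the kinase of the chromosomal passenger complex, was well above background on 0 of 3 wild-type and 4 of 4 knockout arrays, which gives a difference of at least 7.22-fold (adjusted p = 0.107). The centromeric histone Cenpa differed by 2.06 (SE 0.49, adjusted p = 0.107) and the mitotic kinase Cdk1 by 2.66 (SE 0.75, adjusted p = 0.127). Cyclin B1 (Ccnb1, 2.94) and topoisomerase II alpha (Top2a, 2.29) had adjusted p values of 0.17 and 0.194 and were each well above background on 2 of 3 wild-type arrays. Genes of DNA replication and S phase lay above 0 in 24 of 27 with a smaller median of 0.78 (0.47 against wild-type 641 alone). Of the 26 measured on all 7 arrays, 5 did not overlap, all higher (5.4% of all genes). The S phase regulator E2f2 differed by 1.43 (SE 0.31, adjusted p = 0.0999), thymidylate synthase (Tyms) by 1.0 (SE 0.28, adjusted p = 0.127) and the replicative helicase subunit Mcm6 by 1.88 (SE 0.59, adjusted p = 0.148).

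**Figure D2:**
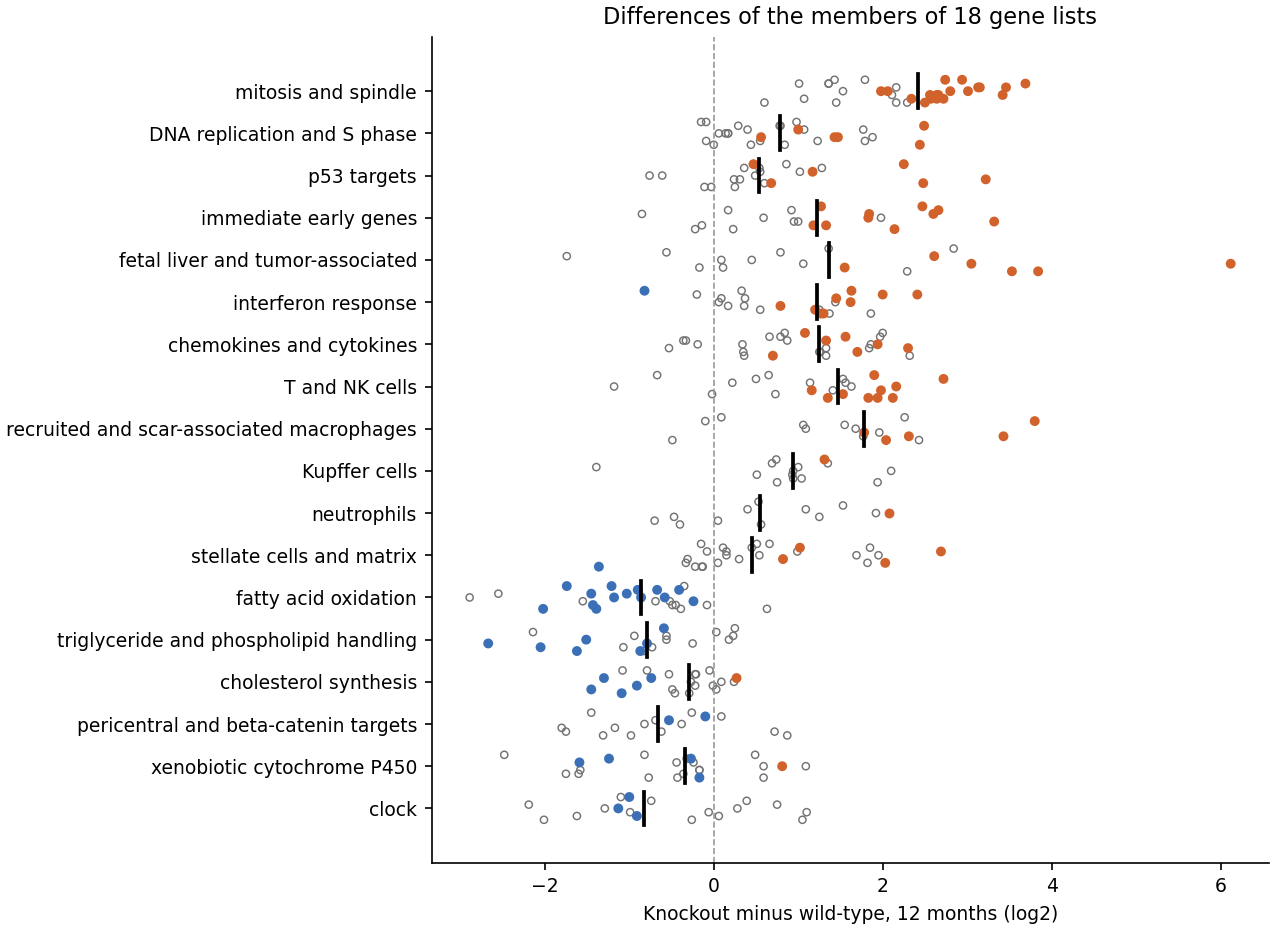
Difference of each tested member of 18 gene lists between knockout non-tumor and wild-type liver at 12 months (horizontal axis, log2). Filled symbols are members whose 4 knockout and 3 wild-type arrays do not overlap (orange higher, blue lower). Members not measured on every array, such as Acaa1b and Acadvl of fatty acid oxidation, are filled too, although their overlap was not judged. Open symbols are the others. Black bars are list medians, which run from 2.42 for mitosis to -0.86 for fatty acid oxidation. A few genes belong to more than 1 list.

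Of 21 tested p53 targets, 17 lay above 0 (median 0.54), and 6 did not overlap (5.4% of all genes). Besides Btg2, the BH3-only gene Pmaip1 (Noxa), which neutralises MCL-1, differed by 2.25 (SE 0.56, adjusted p = 0.107), with levels of -2.94, -3.10 and -4.56 against -1.33, -2.53, -0.25 and -1.02. Its groups did not overlap. Phlda3, an inhibitor of AKT, differed by 1.17 (SE 0.35) and the polo-like kinase Plk2 by 1.28 (SE 0.41). The best known target, the cell cycle inhibitor Cdkn1a, overlapped between groups: its levels were -1.69, -0.11 and -0.33 in the wild-type and -0.29, 0.47, -0.36 and -0.46 in the knockout animals.

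Immediate early genes, transcription factors and regulators induced within minutes of a stimulus, lay above 0 in 17 of 20. Of the 20, 10 did not overlap, all higher (5.4% of all genes). The list median was 1.23, 1.30 without wild-type 641 and 1.46 against it alone. Its mean level was nearly the same in the 3 wild-type animals (-0.46, -0.42 and -0.43) and higher in each knockout animal (0.92, 0.38, 1.31 and 0.70). Junb, an AP-1 subunit, had levels of 3.54, 3.70 and 4.15 in wild-type 552, 641 and 1110 and of 6.72, 4.46, 7.05 and 6.82 in knockout 1109, 638, 702 and 793 (difference 2.47, SE 0.56, adjusted p = 0.105). The orphan nuclear receptor Nr4a1 had levels of 0.91, 1.01 and 1.06 against 4.11, 2.13, 4.65 and 3.48 (difference 2.60, SE 0.76, adjusted p = 0.131). In both genes knockout 638 lay far below the other 3 knockout animals and still above the wild-type. Ier5, a heat- and serum-induced gene, differed by 1.84 (SE 0.39, adjusted p = 0.0999) and the AP-1 subunit Fosl2 by 1.33 (SE 0.31, adjusted p = 0.106). A dimmer Fosl2 probe differed by -0.84. Such genes also respond to the handling of tissue, and the part of handling was not tested.

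Genes of fetal liver and liver tumors lay above 0 in 14 of 17 (median 1.36, and 0.63 against wild-type 641 alone). Of the 17, 6 did not overlap, all higher (5.4% of all genes). The list was written with known tumor results of this study in view and does not speak for a direction on its own. Tff3, a secreted trefoil peptide of epithelia, had levels of -4.45, -3.64 and -3.97 in wild-type 552, 641 and 1110 and of 3.35, -1.79, 4.41 and 2.42 in knockout 1109, 638, 702 and 793. This difference of 6.12 had an SE of 1.43 and an adjusted p of 0.107, and 3 of the 4 knockout animals accounted for most of it. Scd2, the fatty acid desaturase of fetal and non-hepatic tissue, had levels of 1.8, 0.41 and -0.60 against 4.34, 3.23, 5.35 and 4.59 (3.84, SE 1.14, adjusted p = 0.134). The Golgi protein Golm1 had levels of -0.53, -0.46 and -1.51 against 0.77, 0.35, 4.37 and 1.64 (2.61, SE 0.73, adjusted p = 0.126). Knockout 702 was the highest for Tff3, Scd2 and Golm1. The aldo-keto reductase Akr1b10 differed by 1.55 (SE 0.36, adjusted p = 0.107).

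Glypican 3 (Gpc3) and Igf2 were each high in 1 knockout animal. Gpc3, a fetal heparan sulfate proteoglycan, had a level of 1.29 in knockout 702 and between -4.28 and -3.52 in the other 3 knockout animals, with -3.20, -4.00 and -3.19 in the wild-type. The fetal growth factor Igf2 had a level of 3.45 in knockout 793 and of -2.82, -1.69 and -4.24 in knockout 1109, 638 and 702, with wild-type levels between -3.77 and -3.54. In the tumor sample of the same animals, Gpc3 was 0.88 in animal 702 and Igf2 was 1.63 in animal 793. Whether tumor tissue was present in a non-tumor sample was not tested.

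No marker of immune cells passed the threshold in the full comparison, and most lay above 0. T and NK cell genes lay above 0 in 19 of 22 (median 1.47, and 0.70 against wild-type 641 alone). Of the 22, 10 did not overlap, all higher (5.4% of all genes). Mean levels of the list were -3.34, -2.68 and -4.73 in wild-type 552, 641 and 1110. In knockout 1109, 638, 702 and 793 they were -2.91, -2.62, -2.26 and -1.78. The list means thus overlapped, and wild-type 1110 was the lowest. Cd8a, the co-receptor of cytotoxic T cells, had levels of -2.99, -3.27 and -5.66 in wild-type 552, 641 and 1110 and of -1.99, -1.48, -0.67 and -0.88 in knockout 1109, 638, 702 and 793. It differed by 2.72 (SE 0.61, adjusted p = 0.0999), with groups that did not overlap, and its 2 other probes differed by 2.02 and 2.42. The NK receptor Klrd1 (2.12, SE 0.53), the T cell kinase Lck (1.98, SE 0.52), granzyme B (Gzmb, 2.16, SE 0.60) and the chemokine receptor Cxcr3 (1.90, SE 0.55) had adjusted p values from 0.107 to 0.128. The 3 members of the list below 0 were Prf1 (-0.67, SE 0.69), Ncr1 (-1.18, SE 0.91) and Eomes (-0.02, SE 1.09), each with overlapping groups. Cd4 differed by 0.22 (SE 0.59).

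Genes of recruited and scar-associated macrophages lay above 0 in 14 of 16 (median 1.78, and 1.29 against wild-type 641 alone). Of the 16, 5 did not overlap, all higher (5.4% of all genes). Mean levels of the list were 0.74, 0.12 and -1.22 in wild-type 552, 641 and 1110. In knockout 1109, 638, 702 and 793 they were 1.53, 0.74, 2.16 and 1.74. Knockout 638 was thus level with wild-type 552, and wild-type 1110 was the lowest. Lipoprotein lipase (Lpl), made by lipid-laden macrophages and by adipocytes, had levels of 1.15, -0.54 and -1.15 against 2.90, 1.67, 4.88 and 5.03 (3.80, SE 1.07, adjusted p = 0.127). Osteopontin (Spp1) had levels of 3.92, 3.75 and 3.18 against 4.95, 4.72, 7.57 and 5.39 (2.04, SE 0.53, adjusted p = 0.108). In neither gene did the groups overlap, and the highest knockout animal was 793 for Lpl and 702 for Spp1. The phagocyte oxidase subunit Cybb differed by 2.43 (SE 0.62, adjusted p = 0.107; 1.18 by a second probe), the lipid receptor Trem2 by 2.31 (SE 0.80) and the monocyte receptor Ccr2 by 1.77 (SE 0.62). Markers of Kupffer cells, the resident macrophages, lay above 0 in 13 of 14 with a median of 0.94 (0.79 against wild-type 641 alone). Of the 14, 1 did not overlap, a share near the 5.4% of all genes. The list means overlapped, with 1.58 in knockout 702 and 1.72 in wild-type 552, and wild-type 1110 was the lowest at 0.04. The macrophage surface receptor Adgre1 differed by 1.94 (SE 0.61, adjusted p = 0.149; 0.39 by a second probe) and the scavenger receptor Marco by 2.10 (SE 0.72, adjusted p = 0.166).

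Neutrophil genes had a median of 0.55 in the full comparison, 1.70 without wild-type 641 and -1.09 against wild-type 641 alone. Their mean level was -4.30 and -4.53 in wild-type 552 and 1110, -1.84 in wild-type 641 and between -3.44 and -2.25 in the knockout animals, so the direction rested on which wild-type animal was taken. Medians of B and plasma cells (0.46), dendritic cells and antigen presentation (0.73) and pancreatic acinar cells (0.49) were -0.34, -0.09 and -1.33 against wild-type 641 alone, where the median of all genes was -0.52. Chemokines and cytokines lay above 0 in 23 of 27 (median 1.25, and 0.73 against wild-type 641 alone). Of the 27, 7 did not overlap, all higher (5.4% of all genes). Lymphotoxin beta (Ltb), which organises lymphoid tissue, differed by 2.30 (SE 0.55, adjusted p = 0.107), with levels of 0.53, 0.47 and -0.54 against 1.64, 1.63, 3.30 and 3.24. The alarmin Il33 differed by 2.00 (SE 0.58) and the macrophage chemokine Ccl6 by 1.33 (SE 0.40).

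Interferon response genes lay above 0 in 20 of 22 (median 1.22, and 0.72 against wild-type 641 alone). Of the 22, 9 did not overlap above (5.4% of all genes) and 1 below (4.78%). Interferon signalling is known to act on many such genes through the interferon-stimulated response element, with a core of GAAA, any 2 bases and GAAA. This core was found, on either strand, in the 250 bases before the start in 9 of the 19 genes with a window (47.4%), against 3.04% of all genes with one. Here too a match describes the letters only. The windows of Ifit1 and Oas1a, those of the 2 members with the smallest p that hold the core, are shown with it in capitals (the reverse complement where it lies on the other strand). As for mitosis genes, a single chromosome was left out of the choice.
Ifit1 (chr19:34640639-34640888, plus strand): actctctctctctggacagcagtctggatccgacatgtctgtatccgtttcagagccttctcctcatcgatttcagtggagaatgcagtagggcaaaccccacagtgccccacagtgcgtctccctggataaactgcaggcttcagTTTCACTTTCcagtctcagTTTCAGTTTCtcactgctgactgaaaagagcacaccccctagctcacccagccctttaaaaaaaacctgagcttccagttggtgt
Oas1a (chr5:120907526-120907775, minus strand): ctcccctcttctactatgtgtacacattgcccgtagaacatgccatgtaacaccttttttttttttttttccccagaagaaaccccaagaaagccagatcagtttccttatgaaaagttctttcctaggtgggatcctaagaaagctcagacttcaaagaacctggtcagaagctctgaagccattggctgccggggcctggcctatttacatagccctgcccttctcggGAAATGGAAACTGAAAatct
Ifit1, which binds viral RNA lacking a host cap, holds the core at 2 places and had levels of -1.01, -0.34 and -2.34 in wild-type 552, 641 and 1110 and of 0.56, 0.24, 0.20 and 0.60 in knockout 1109, 638, 702 and 793 (difference 1.63, SE 0.41, adjusted p = 0.107). Oas1a, which makes the signal that activates RNase L, had levels of -0.74, -0.24 and -1.76 against 0.08, 1.41, 2.10 and 0.75 (difference 2.00, SE 0.52, adjusted p = 0.111). Ifi44 had levels of -2.21, -1.48 and -3.66 against -0.12, -0.72, 0.58 and 0.09. In all 3 genes every knockout animal was above every wild-type animal. The chemokine Cxcl10, which draws T cells, differed by 1.86 (SE 0.53, adjusted p = 0.127) and Ifi27l2a by 1.45 (SE 0.41, adjusted p = 0.127).

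Of 27 stellate cell and matrix genes, 19 lay above 0 (median 0.45), with 4 not overlapping above (5.4% of all genes) and 1 below (4.78%). Vimentin (Vim, 1.85, SE 0.54) and the matrix proteoglycan lumican (Lum, 2.03, SE 0.61) had adjusted p values of 0.131 and 0.135, and collagen I (Col1a1) differed by 1.82 (SE 0.79, adjusted p = 0.252), but by 0.11 by another probe that was well above background on all 7 arrays and by -0.50 by a dim one. Smooth muscle actin (Acta2) differed by -1.36 by the probe with the highest signal, whereas its 2 other probes differed by 2.89 and 1.54, so its direction is not settled. Endothelial genes lay above 0 in 11 of 19 and below 0 in 8 (median 0.11). Cd34, a marker of capillary endothelium, stood out among them with levels of -0.87, -1.33 and -2.00 against 1.60, -0.09, 1.39 and 1.46 (2.49, SE 0.55, adjusted p = 0.0999). Erg (-1.77, SE 0.59), Gata4 (-1.34, SE 0.43) and Eng (-0.87, SE 0.37) differed the other way, each with overlapping groups. Cholangiocyte and progenitor genes lay above 0 in 10 of 15 (median 0.79, and 0.09 against wild-type 641 alone). The duct transcription factor Sox9 differed by 1.47 (SE 0.61, adjusted p = 0.235; 1.74 and -0.60 by its other probes), and the duct keratin Krt19 was 1.26 in knockout 1109 but between -1.56 and -0.43 in the other 3, with wild-type levels from -1.06 to -0.90.

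**Figure D3:**
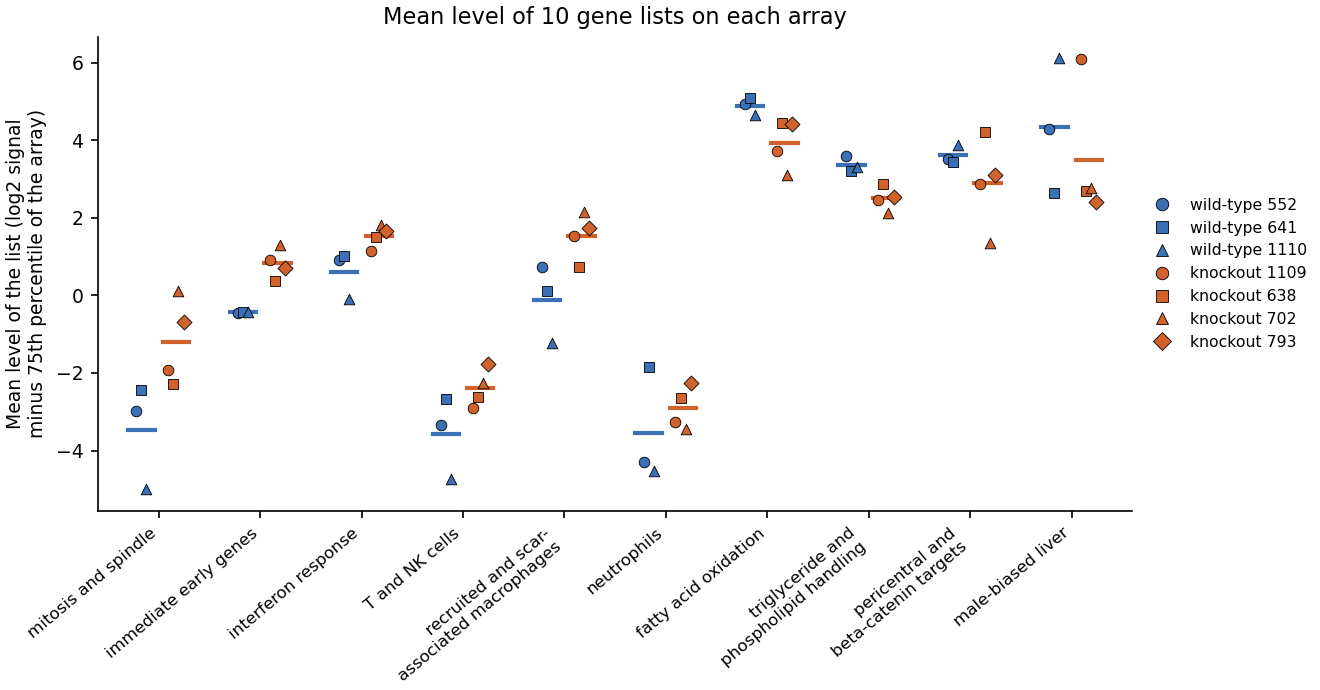
Mean level of 10 gene lists on each array (vertical axis, log2 signal minus the 75th percentile of the array). Blue symbols are wild-type and orange symbols knockout non-tumor livers at 12 months, the symbol marks the animal and lines are group means. Mitosis and immediate early genes were higher on every knockout array and fatty acid oxidation was lower on every one. Neutrophil, T and NK cell, pericentral and male-biased genes overlapped, and macrophage genes were level in knockout 638 and wild-type 552.

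Fatty acid oxidation, by which liver burns fat in mitochondria and peroxisomes and makes ketone bodies, was below 0 in 24 of 25 genes, with a median of -0.86, against 55.2% of all genes below 0. In 12 of 23 genes measured on all 7 arrays every knockout animal was below every wild-type animal (4.78% of all genes). The median was -0.75 without wild-type 641, where that of all genes was 0.22, and -0.85 against it alone, where that of all genes was -0.52, so its distance from all genes was smaller against wild-type 641. List means were 4.93, 5.09 and 4.66 in wild-type 552, 641 and 1110 and 3.73, 4.46, 3.11 and 4.43 in knockout 1109, 638, 702 and 793.

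Acads, the short-chain acyl-CoA dehydrogenase, had levels of 3.93, 3.93 and 4.43 in the wild-type and 2.29, 3.32, 2.20 and 2.79 in the knockout animals (difference -1.45, SE 0.33, adjusted p = 0.102). Knockout 702 was the lowest and knockout 638 the nearest to the wild-type. Hadha, the alpha subunit of the trifunctional protein, differed by -1.03 (SE 0.23, adjusted p = 0.0999), Eci1 by -1.21 (SE 0.32, adjusted p = 0.112) and the carnitine carrier Slc25a20 by -1.18 (SE 0.33, adjusted p = 0.126). Ppara, the nuclear receptor that drives most of these genes, differed by -1.43 (SE 0.43, adjusted p = 0.137), with levels of 4.92, 5.20 and 4.66 against 3.01, 4.28, 2.76 and 3.94. The gate enzyme Cpt1a differed by -0.49 (adjusted p = 0.428), with overlapping groups.

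Genes that build and export triglyceride and phospholipid were below 0 in 15 of 19 (median -0.79). Of the 19, 7 did not overlap, all lower (4.78% of all genes). Apart from Lpin2, the genes with the smallest p were Apob, the scaffold of very-low-density lipoprotein, Cideb, which lipidates it, and Pcyt1a, the rate-limiting step to phosphatidylcholine. Apob had levels of 7.30, 7.30 and 7.80 in wild-type 552, 641 and 1110 and of 3.95, 6.57, 5.55 and 5.59 in knockout 1109, 638, 702 and 793, a difference of -2.05 (SE 0.47, adjusted p = 0.105), and its 2 other probes differed by -1.85 and -2.07. Cideb differed by -1.51 (SE 0.38, adjusted p = 0.107) and Pcyt1a by -1.62 (SE 0.44, adjusted p = 0.121). Apob was lower in each knockout animal than in each wild-type animal, the lowest being knockout 1109. Lipogenesis genes were below 0 in 14 of 17 (median -0.42), and cholesterol synthesis genes in 17 of 21 (median -0.29). Against wild-type 641 alone these medians were -0.48 and 0.13, where that of all genes was -0.52.

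Cyp8b1, the sterol 12-hydroxylase that sets the share of cholic acid, had levels of 3.64, 2.47 and 4.23 in wild-type 552, 641 and 1110 and of 0.20, 0.83, -3.44 and 0.51 in knockout 1109, 638, 702 and 793. The groups did not overlap, and the difference was -3.92 (SE 0.92, adjusted p = 0.107). Cyp7a1, the rate-limiting enzyme of the classic pathway, overlapped: 3.36, 0.87 and 2.61 stood against 3.36, 4.6, -2.24 and 3.04, with knockout 702 far below the others. Cyp27a1, the first enzyme of the alternative pathway, differed by -1.8 (SE 0.52, adjusted p = 0.13), and the basolateral exporter Abcc3 by -0.91 (SE 0.24, adjusted p = 0.119).

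Other hepatocyte functions showed smaller medians. Secreted proteins were below 0 in 15 of 20 (median -0.28, but 0.22 after quantile normalisation). Transcription factors were so in 13 of 17 (-0.53) and xenobiotic cytochrome P450 genes in 17 of 22 (-0.34). Against wild-type 641 alone these medians were -0.06, -0.41 and -0.62, where that of all genes was -0.52. There, secreted proteins and transcription factors did not lie below all genes. The receptor Nr5a2 differed by -0.84 (SE 0.26, adjusted p = 0.144) and Cebpa, a driver of hepatocyte differentiation, by -1.27 (SE 0.41, adjusted p = 0.153), with levels of 4.28, 4.57 and 5.01 against 3.0, 4.29, 3.09 and 3.03. For Cebpa knockout 638 reached the wild-type range and the other 3 did not. Cyp2d22 differed by -1.59 (SE 0.41, adjusted p = 0.108). Urea cycle and periportal genes had a median of 0.03; among them the epithelial cadherin Cdh1 had levels of -1.43, -0.79 and 0.73 against 3.49, 0.25, 4.47 and 3.27 (3.37, SE 0.84, adjusted p = 0.107). The glucose transporter Slc2a1, the form of fetal and dividing cells, differed by 1.59 (SE 0.32, adjusted p = 0.0982), with levels of 0.53, -0.23 and 0.91 against 2.47, 1.23, 2.08 and 2.19 and no overlap. Acute phase proteins (median 0.15), NRF2 targets (0.15), unfolded protein and amino acid stress genes (-0.03) and iron handling genes (-0.08) lay near the median of all genes in the full comparison. Without wild-type 641, where that of all genes was 0.22, they were 0.07, -0.10, -0.20 and -0.03. Against wild-type 641 alone, where it was -0.52, they were 0.01, 0.59, 0.22 and -0.07, so the nearness did not hold there.

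Relatives of MCL-1 differed in both directions, and no BCL-2 family gene passed the threshold. The survival genes Bcl2l1, which codes for BCL-XL, and Bcl2l2 differed by 0.52 (SE 0.32, adjusted p = 0.442; -0.33 by the mean of its probes) and -0.35 (SE 0.20, adjusted p = 0.411), and both overlapped between groups. Bcl2a1b, the form of immune cells, differed by 1.85 (SE 0.69, adjusted p = 0.189), and its near-identical copies may share the probe. The pore-forming Bak1 differed by 0.10 (SE 0.33) and the activator Bcl2l11 (BIM) by 0.27 (SE 0.45), less than their SE, and both signs turned with the processing. Bad, a BH3-only protein that does not bind MCL-1 but BCL-XL and BCL-2, had levels of -2.99, -2.00 and -2.44 against -4.26, -3.38, -4.08 and -3.72 and differed by -1.38 (SE 0.36, adjusted p = 0.114). Among effectors of other forms of cell death, the inflammatory caspase Casp1 differed by 2.37 (SE 0.58, adjusted p = 0.107), the necroptosis kinase Ripk3 by 1.43 (SE 0.36, adjusted p = 0.107) and its substrate Mlkl by 1.30 (SE 0.42, adjusted p = 0.157). Casp1 and Ripk3 did not overlap between groups, and both are also expressed by macrophages.

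The 4 knockout animals differed among themselves. Pericentral and beta-catenin target genes, which mark hepatocytes around the central vein, had a mean level of 1.36 in knockout 702 against 2.87, 4.22 and 3.12 in knockout 1109, 638 and 793 and 3.44 to 3.89 in the wild-type. Glutamine synthetase (Glul), confined to the last row of pericentral hepatocytes, was 3.44 in knockout 702 and 5.59 to 6.70 in the other 3. Mean level of the male-biased genes, which follow the male pattern of growth hormone, was 6.10 in knockout 1109 and between 2.42 and 2.77 in the other 3 knockout animals, with 4.30, 2.65 and 6.12 in wild-type 552, 641 and 1110. Knockout 702 thus had a low level of these genes while it lacked Xist signal and carried Y-linked transcripts. The lipid droplet gene Cidea was 6.75 and 5.07 in wild-type 552 and 1110, -3.25 in wild-type 641 and between -0.63 and 1.88 in the knockout animals.

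By the spread of the 4 knockout levels, the most variable genes included Lars2, Hsd3b5, Slc22a26 and Cyp4a14. Lars2, the mitochondrial leucyl-tRNA synthetase, had levels of -1.50 and -2.41 in knockout 1109 and 702, of 6.01 and 5.61 in knockout 638 and 793, and of 6.29, 9.23 and 9.34 in the wild-type. The split of Lars2 followed the Xist signal within the knockout group and did not in the wild-type. Slc22a26, an organic anion transporter, was between 2.43 and 2.81 on the 3 arrays with Xist signal and between -4.57 and -3.84 on the 4 without it. Hsd3b5, a male-biased steroid dehydrogenase, was 3.54 in knockout 1109 and -4.75, -2.42 and -4.54 in knockout 638, 702 and 793. Cyp4a14, a PPARA target, was -1.58 in knockout 702 and 3.50 to 6.71 in the other 3. The stress hormone gene Gdf15 was 5.15 in knockout 638 and 2.05 to 2.35 in the other 3.

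**Figure D4:**
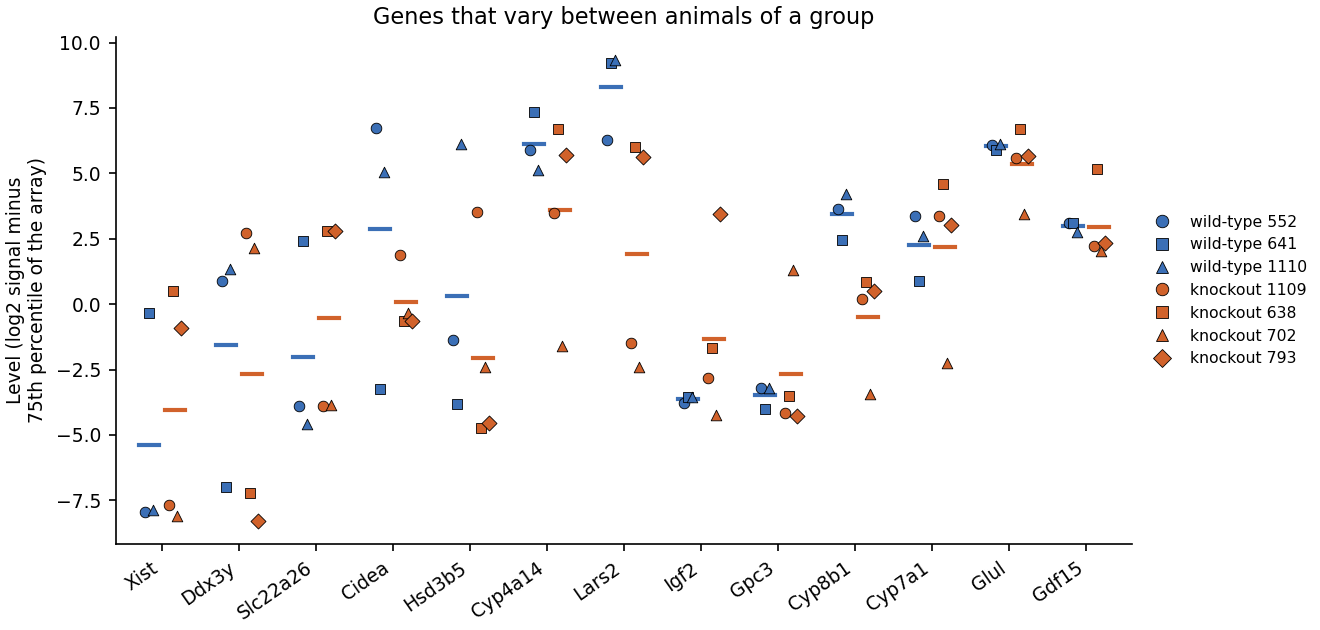
Level on each array (vertical axis, log2 signal minus the 75th percentile of the array) of 13 genes that vary between animals of a group. Blue symbols are wild-type and orange symbols knockout non-tumor livers at 12 months, with group means as lines. Xist and Ddx3y split the animals by sex-linked transcripts, and knockout 702 is the highest for Gpc3 and the lowest for Cyp8b1, Cyp7a1 and Glul.

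The same contrast was available at 2 months, from 3 knockout and 2 wild-type arrays that share none with the 12-month groups. No gene of 27022 passed the adjusted p of 0.05 for a difference between the ages (0%, limma), with 2582 at an unadjusted p under 0.05 and a smallest adjusted p of 0.128. Across genes the differences at both ages had the same sign in 50.3% and a Pearson correlation of 0.123, given as a description. Of the 15 named genes higher at 12 months, 13 had the same sign at 2 months, and of the 15 lower, 8. Mcl1 differed by -2.44 (SE 0.37) at 2 months and -1.66 at 12 months, a difference of 0.78 (SE 0.49, adjusted p = 0.603). B3galnt1 (2.47), A_51_P361620 (6.82), Tinag (5.31), Phlda2 (2.73) and Lpin2 (-1.45) had the sign of their 12-month difference at 2 months.

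Mitosis genes had a median of 2.44 at 2 months and 2.42 at 12 months, and fatty acid oxidation genes -0.62 and -0.86. Genes with the smallest p for a difference between ages included Dmrta1 (adjusted p = 0.191). It was not well above background on any wild-type or knockout array at 2 months, so no fold is given there, and at 12 months it was so on the 3 wild-type arrays alone. C4a differed by 1.02 at 2 months and -2.10 at 12 months (adjusted p = 0.141). The choline-phospholipid hydrolase Gpcpd1 differed by -2.92 and 0.68 (adjusted p = 0.128), and the p53 relative Trp73 by -2.09 and 1.70 (adjusted p = 0.304). Clock genes had medians of -0.92 and -0.82, and the hour of sampling is not given, so its part was not tested.

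**Figure D5:**
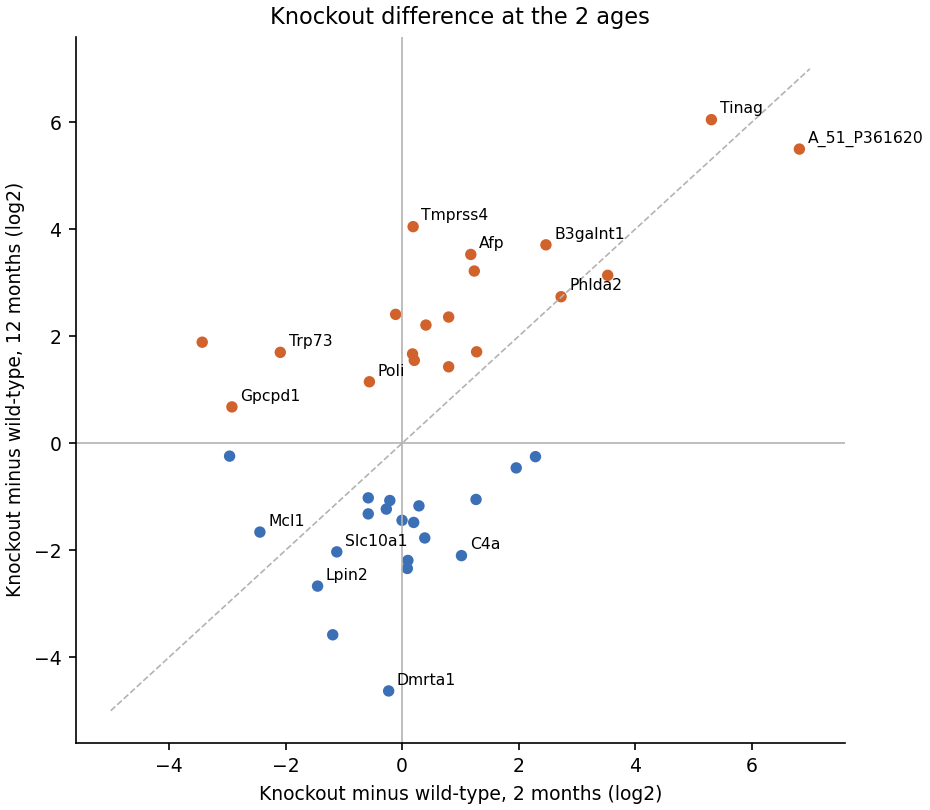
Knockout minus wild-type difference at 12 months (vertical axis, log2) against the same difference at 2 months (horizontal axis, log2) for Mcl1, the probes past the threshold, the named higher (orange) and lower (blue) genes and those with the smallest p for a difference between ages. The dashed line marks equal differences. Tinag is high at both ages. The place of Dmrta1 has no exact meaning, since its probe was not well above background on any knockout array at either age.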

How the data were processed

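The 25 arrays were single-colour Agilent arrays with Cy3-labelled cRNA. The deposited files hold intensity values from Agilent Feature Extraction 10.5.1.1, per the file headers: a processed signal, from which the software had taken the background and spatial trend, and a median signal. The authors also deposited log2 values, whose ranks follow the median signal and whose normalisation between arrays is not given in the sources used here. The submitters' processing notes name limma without its role.

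Log2 processed signal, averaged over the spots of a probe, minus the 75th percentile of the array was used. Accessions printed with the probes were matched to RefSeq (GRCm38.p6), which named 24375 of 41174 probes. Each gene was read from its probe with the highest mean level, and kept when well above background on at least 2 of the 18 arrays of the model. The model (limma 3.58.1, R 4.3.3, lmFit and eBayes, two-sided) held 6 groups without tumors and had 12 residual degrees of freedom; Benjamini-Hochberg adjustment ran across all probes and genes tested, with a threshold of 0.05. Lists describe by counts and medians, with no test. It was tested on simulated data.

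The comparison, the lists and the genes named were chosen with earlier results of these data known. Named were Mcl1, every probe past the threshold, up to 15 genes each way with the smallest p (groups apart, a difference of at least 1, well above background on the higher arrays), up to 5 members of each list, up to 8 genes with the largest spread in the knockout, up to 5 each way for the difference between ages, and a fixed panel. Cdk1, Bak1, Bcl2l11 and Cpt1a were added for their role. Animal numbers differ within each group, so arrays are separate animals. Alternatives were other background corrections and normalisations, filters, probe rules, variance options, slide, scan day and Xist, and leaving out each array. Normexp used the median signal, since a mean signal is not in the columns used here. The number of arrays limits the precision.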

Additional observations from a re-analysis of the deposited data

Results flagged for a closer look

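Among 162 genes and list means whose levels or differences are reported, 11 had 1 of the 4 knockout animals apart from the other 3, by a gap beyond the critical value of Dixon's test, which chance passes in about 1 in 20 groups. Knockout 638 stood apart in 6 of them. Its levels were 4.46 for Junb, 4.29 for Cebpa, -0.09 for Cd34, -0.68 for Bcl2l11 and 5.15 for Gdf15, and 4.32 for the mean of lipogenesis genes. Knockout 702 stood apart with 1.29 for Gpc3 and -3.44 for Cyp8b1. Knockout 1109 stood apart with -5.91 for C4a, 1.88 for Cidea and 6.10 for the mean of male-biased genes. No cause was tested.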

How the results depend on the processing

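The count of genes past the threshold depended on the processing. It was 5 in the reported comparison, and 557 with normexp and quantile normalisation, 228 with the deposited log2 values, 463 with genes well above background on every array, 301 with trend and robust variances, 2 with median scaling, 2 with slide as a random block and 0 with only the 7 arrays of the 2 groups (limma, 2651 at an unadjusted p under 0.05). It was 3261 with scan day as a block and 2751 on the first scan day alone, nearly all lower, with wild-type 641 as the only 12-month wild-type array of that day, and 1079 on arrays without Xist signal, an alternative added after the data were seen, like the adjusted p of 0.10 with 141. Leaving out 1 array at a time gave 1 to 2846. Dmrta1 passed in 30 of 31 settings, B3galnt1 and Lpin2 in 26 of 32, A_51_P361620 in 17 of 31 and A_52_P487040 in 13 of 32, each with 1 sign throughout. By the mean of all probes Abcb1b was -0.29, Fosl2 0.25 and Col1a1 0.48. Mcl1 passed with normexp (-1.48), the deposited values (-1.53), the stricter filter (-1.66), trend and robust variances (-1.66) and on arrays without Xist signal (-1.80), and ranged from -1.86 to -1.55 with 1 array left out. Differences between ages numbered 5 with normexp, 1 with quantile normalisation, 2 with the deposited values, 1 with the stricter filter, 1 with trend and robust variances, 191 with scan day as a block, 3 on the first day, 172 without Xist signal and 0 to 320 with 1 array left out. The cause was not tested.

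Signs turned for 4 named genes. By the mean of all probes Bcl2l1 was -0.33, Bak1 -0.33, Bcl2l11 -0.27 and Acta2 1.02. With scan day as a block, and equally on the first day, Bak1 was -0.10 and Bcl2l11 -0.12. Bak1 was -0.01 without Xist arrays and from -0.20 to 0.26 with 1 array left out, Bcl2l11 from -0.08 to 0.55. Of 37 list medians, 22 kept their sign in every setting. The median of secreted proteins was 0.17 with normexp, 0.22 with quantile normalisation and 0.15 with the deposited values, and that of cholesterol synthesis 0.13 with scan day as a block or on the first day. Others that crossed 0 included neutrophils (-1.09 to 1.70), male-biased genes (-1.65 to 0.77), NRF2 targets (-0.10 to 0.59) and endothelial genes (-0.17 to 0.26). Medians kept their sign in all 32 settings for mitosis (1.15 to 3.24), immediate early genes (0.84 to 1.46), interferon response (0.62 to 1.39), fatty acid oxidation (-1.18 to -0.70) and triglyceride and phospholipid genes (-1.04 to -0.60). The median of all genes was -0.09, 0.01 to 0.06 under other normalisations and -0.53 with scan day as a block. Slide as a fixed block could not be fitted, because no slide held both groups. No paired analysis was possible because the 2 groups share no animal number. Signal near background limits Dmrta1, Aurkb, Tinag and A_51_P361620. Over the settings, C4a ranged from -2.39 to -0.36, Tafa5 from -4.23 to -0.69 and Ubr3 from -1.67 to -0.20. The sizes of these differences are therefore uncertain too, though each kept its sign.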

Other observations

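Gluconeogenesis and glycogen genes were below 0 in 10 of 13 (median -0.24, and -0.16 against wild-type 641 alone), with no member past the threshold. Among glycolysis genes (median 0.10) the liver pyruvate kinase Pklr had levels of 2.77, 2.30 and 0.91 in wild-type 552, 641 and 1110 and of -0.60, 1.45, -0.23 and -0.45 in knockout 1109, 638, 702 and 793, a difference of -1.96 (SE 0.64, adjusted p = 0.158, limma). The groups overlapped through knockout 638. The enolase Eno1 differed by -1.75 (SE 0.43, adjusted p = 0.107). DNA damage and repair genes were above 0 in 11 of 17 (median 0.39, and -0.16 against wild-type 641 alone). The checkpoint kinase Atm differed by -0.94 (SE 0.27, adjusted p = 0.127).

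All 5 mesothelial markers (median -0.85) and all 6 adipocyte markers tested (median -1.10) were below 0, and none passed the threshold. The mesothelial surface gene Upk3b differed by -2.37 (SE 0.74, adjusted p = 0.147). Igfbp1, a binding protein of insulin-like growth factors made by the liver in fasting, had levels of 4.88, 4.05 and 5.55 against 7.35, 5.76, 8.29 and 8.35, with no overlap (2.61, SE 1.28, adjusted p = 0.314). Id1, a target of BMP signalling, had levels of -0.65, 2.41 and -0.92 against 3.45, 2.31, 3.29 and 4.25, and wild-type 641 reached the knockout range (3.04, SE 0.95, adjusted p = 0.145).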
